A study of Mus musculus with 50 samples.

Results

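The mitochondrial ribosomal protein genes were taken as the symbols of the count files that start with Mrpl or Mrps followed by a digit, leaving out 6 symbols that contain -ps. This gave 78 genes of the 53700 in the files. By textbook assignment 51 of them encode proteins of the large subunit of the mitochondrial ribosome and 26 of the small subunit, while Mrps36, despite its symbol, encodes a subunit of the 2-oxoglutarate dehydrogenase complex. A counterpart in the bacterial ribosome is known for 47 members, and 30 are particular to mitochondrial ribosomes. The members lie on 17 chromosomes, and 57 share exonic bases with a gene on the opposite strand. Of the 78, 77 passed the filter on low counts (a level of 1 CPM or above in more than 2 mice, CPM being counts scaled to library size); the exception was Mrpl53, with 0 to 5 reads in every mouse.

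Mitochondrial ribosomes translate the few mRNAs encoded by the mitochondrial genome, all of which specify core subunits of the oxidative phosphorylation (OXPHOS) complexes. Their RNA is transcribed inside the organelle, whereas all their proteins are encoded in the nucleus, made on cytosolic ribosomes and imported. They descend from a bacterial ribosome that lost RNA and gained proteins, and macrophage-type cells, microglia included, are known to shift from oxidative phosphorylation towards glycolysis after lipopolysaccharide.

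Microglia were sorted as CD11b+ CD45int cells from the hippocampus of 50 male C57BL/6J mice, 1 library per mouse. At postnatal day 9 (P9), 12 control mice (P9-CTR) and 13 mice with early-life stress (P9-ELS; limited bedding and nesting material from P2 to P9) were killed without further treatment. At P200, mice with either history received PBS or lipopolysaccharide (LPS, 1 mg/kg intraperitoneally) 3 h before death, giving 7 CTR-PBS, 7 CTR-LPS, 6 ELS-PBS and 5 ELS-LPS mice. Mice are named by age and label number, whose part before the point was taken as the nest that several mice share. A Percoll step to remove myelin was used for adult tissue only, so that preparation and age cannot be told apart. The reads counted in genes ranged from 5152838 to 42231258 per library (median 19960410). All 8 microglial markers examined were present, with a summed level of 34547 to 49056 CPM in P9-CTR and 70024 to 82049 CPM in CTR-PBS mice. Each of 3 libraries held fewer than 16000 detected genes against 16485 to 21100 in the others: CTR-PBS mouse P200_1.1 (12854) and P9-ELS mice P9_19.3 (12482) and P9_19.2 (15731).

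Levels are given as CPM scaled by the trimmed mean of M-values (TMM). The summed level of the 78 members was 2226 to 2913 CPM in P9-CTR mice and 2379 to 6662 CPM in P9-ELS mice. In adult mice it was 2270.4 to 3093 CPM in CTR-PBS, 2088 to 2548 in ELS-PBS, 2127 to 2837 in CTR-LPS and 2371 to 3492 in ELS-LPS mice. The ranges of all 6 groups overlapped, and the medians lay between 2237 (ELS-PBS) and 2647 CPM (P9-ELS). The highest sum, 6662 CPM, belonged to P9-ELS mouse P9_19.2, and mouse P200_1.1 was the highest of the CTR-PBS group at 3093 CPM. The plot of summed levels shows both.

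**Figure D1:**
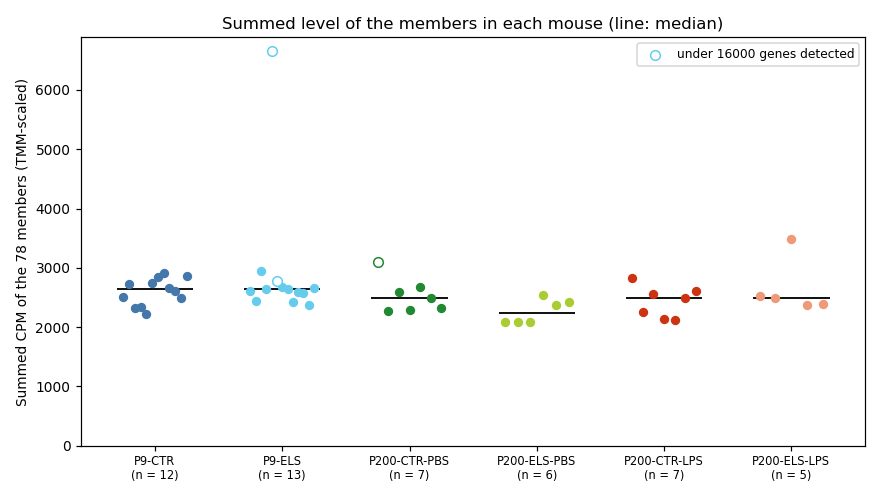
Summed TMM-scaled CPM of the 78 members (vertical axis) in each of the 50 mice (points) by group, with the group median as a line and open points for the 3 libraries with fewer than 16000 detected genes. Apart from P9-ELS mouse P9_19.2 at 6662 CPM, the mice lie between 2088 and 3492 CPM and the groups overlap.

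Expression per length differed widely among the members. Divided by the length of all exons of the gene in GENCODE M39, the level over the 50 mice (FPKM, that is CPM per kilobase of exon) of the 77 tested members ran from 0.801 to 37.0 with a median of 7.51, against a median of 1.92 over the 16588 tested genes with a length. Mrpl28 was the highest (37.0 FPKM), followed by Mrpl34 (29.1) and Mrpl36 (25.4), all with bacterial counterparts in the large subunit. The lowest were Mrpl53 (0.0114 FPKM), Mrpl33 (0.801) and Mrps35 (0.968), with Mrps30 next (1.26). The order depended on the length used. Per length of the canonical transcript the median was 15.9 FPKM, Mrpl28 was number 3 (58.09 FPKM) behind Mrpl42 (93.6) and Mrpl23 (60.6), which were named after their values were seen. Mrpl34 and Mrpl36 then ranked 17 and 10, and Mrpl33, whose annotated exons add up to 14501 bases against 732 in its canonical transcript, rose to rank 39 of 78. Mrps30 (2.91 FPKM), Mrps35 (3.38) and Mrpl53 (0.0424) stayed among the 4 lowest. By class, the 20 tested large-subunit members particular to mitochondria had a median of 8.38 FPKM over all exons and the 9 small-subunit members of that kind 3.20, and members with bacterial counterparts had 8.15 in the large and 6.97 in the small subunit; these ranges overlapped throughout.

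Because the members changed in different directions with age and LPS, the promoters of 4 that carry these results are shown, with that of Mrps11, whose start lies 30 bases from the start of Mrpl46 on the other strand. Each run holds 250 bases before and 50 bases from the start of the canonical GENCODE M39 transcript, read from GRCm39 and written in the direction of the gene. They lie at chr10:81102719-81103018, minus strand, chr11:116029651-116029950, minus strand, chr14:54664110-54664409, plus strand, chr1:79753485-79753784, plus strand and chr7:78432617-78432916, plus strand, for Mrpl54, Mrpl38, Mrpl52, Mrpl44 and Mrps11 respectively. Capitals mark matches, on either strand, to the 6 motifs listed after them.
Mrpl54: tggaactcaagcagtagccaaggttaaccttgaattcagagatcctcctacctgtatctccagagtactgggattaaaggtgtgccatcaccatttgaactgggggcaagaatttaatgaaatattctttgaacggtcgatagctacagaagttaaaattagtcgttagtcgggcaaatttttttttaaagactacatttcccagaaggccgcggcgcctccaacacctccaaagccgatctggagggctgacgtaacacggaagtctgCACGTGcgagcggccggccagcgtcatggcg
Mrpl38: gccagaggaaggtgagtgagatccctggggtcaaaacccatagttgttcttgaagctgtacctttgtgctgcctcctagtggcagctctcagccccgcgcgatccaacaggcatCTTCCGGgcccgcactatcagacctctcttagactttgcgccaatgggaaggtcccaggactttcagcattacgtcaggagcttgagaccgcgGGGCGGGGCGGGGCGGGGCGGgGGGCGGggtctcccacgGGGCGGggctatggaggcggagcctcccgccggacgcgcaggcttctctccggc
Mrpl52: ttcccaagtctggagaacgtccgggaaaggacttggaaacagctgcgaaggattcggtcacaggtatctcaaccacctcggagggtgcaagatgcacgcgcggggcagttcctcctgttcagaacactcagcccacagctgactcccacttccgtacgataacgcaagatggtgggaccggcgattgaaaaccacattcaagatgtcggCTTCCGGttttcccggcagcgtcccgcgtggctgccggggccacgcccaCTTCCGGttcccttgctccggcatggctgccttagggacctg
Mrpl44: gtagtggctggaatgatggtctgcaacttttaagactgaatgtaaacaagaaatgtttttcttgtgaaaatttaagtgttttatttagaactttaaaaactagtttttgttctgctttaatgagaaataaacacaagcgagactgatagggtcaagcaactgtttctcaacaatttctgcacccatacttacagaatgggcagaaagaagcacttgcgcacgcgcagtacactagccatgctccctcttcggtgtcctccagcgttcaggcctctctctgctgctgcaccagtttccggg
Mrps11: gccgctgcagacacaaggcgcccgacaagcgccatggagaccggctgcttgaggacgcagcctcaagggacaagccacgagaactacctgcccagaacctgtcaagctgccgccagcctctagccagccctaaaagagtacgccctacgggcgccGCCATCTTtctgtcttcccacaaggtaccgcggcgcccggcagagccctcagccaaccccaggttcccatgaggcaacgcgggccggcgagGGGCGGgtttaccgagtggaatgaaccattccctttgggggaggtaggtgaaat
Mrpl54, the member with the deepest fall with age in CTR mice, holds an E-box in its first exon. Mrpl38, which rose with age, holds an ETS match and 6 overlapping or neighbouring SP1 matches. Mrpl52, which rose after LPS, holds a pair of ETS matches, Mrpl44, which fell after LPS in CTR mice, none of the 6 motifs, and Mrps11 a YY1 and an SP1 match. ETS matches were also found in Mrpl43 and Mrpl22, which fell after LPS in CTR mice, and not in Mrps18b, which rose. The E-box was also found in Mrpl2, Mrpl36, Mrpl41 and Mrps18c, none of them called with age. Whether any motif goes with a direction of change was not tested.

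The motif searched for the ETS family, which includes GABP, was CCGGAAG. The core of the NRF1 site was searched as CGCATGCG, which reads the same on both strands, and the YY1 site as AAGATGGC. NRF1, GABP and YY1 are known regulators of nuclear genes for mitochondrial proteins. The SP1 site, known from many promoters of genes that every cell uses, was GGGCGG. The E-box, bound by Myc among others, was CACGTG. The TATA box was searched as TATAAA. None of these motifs contains another, and a promoter was counted once per motif. In the same window, ETS was found in 23 of the 77 tested members (29.9%) and in 1973 of the 13077 tested protein-coding genes. NRF1 was found in 5 members (6.49% against 3.34%) and YY1 in 6 (7.79% against 3.32%), and 30 members held at least 1 of these 3 (39.0% against 20.3%). SP1 was found in 33 members (42.9% against 56.9%), the E-box in 5 (6.49% against 9.95%) and the TATA box in 8 (10.4% against 8.19%). A start of another protein-coding gene on the opposite strand lay within 1000 bases of the start of 27 members (35.1%), against 13.4% of the same 13077 genes. These shares describe letters and positions and no binding was measured.

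Which members differed between neonatal and adult microglia was asked separately in CTR mice (CTR-PBS against P9-CTR) and in ELS mice (ELS-PBS against P9-ELS), comparisons that share no mouse. In CTR mice members moved both ways. With age, 8 of 77 rose and 11 fell at an adjusted p under 0.05 (edgeR quasi-likelihood test), where 17.4% of all 16696 tested genes rose and 26.6% fell. In ELS mice 2 rose and 24 fell, where 17.15% of all genes rose and 25.0% fell. The members' share of falls, 14.3% in CTR and 31.2% in ELS mice, lay below that of all genes in CTR and above it in ELS mice, and their share of rises, 10.4% and 2.6%, lay below it in both. The median log2 fold change of the 77 was -0.07 in CTR (all genes -0.09) and -0.32 in ELS mice (all genes -0.01). The gap between conditions was smaller without the 3 libraries of few detected genes: the medians were then -0.10 in CTR and -0.14 in ELS mice, and the share of falls in ELS mice, 27.3%, was close to that of all genes (27.4%). Few changes were large: 1 member in CTR and 8 in ELS mice passed the threshold with an absolute log2 fold change above 1, against 26.4% and 26.2% of all genes. Of the 8 in ELS mice only Mrpl54 kept an absolute log2 fold change above 1 under all 29 alternatives.

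Of the 11 members that fell in CTR mice 10 also fell in ELS mice, which is 90.9% of the CTR list and 41.7% of the ELS list. Mrpl54, a large-subunit protein particular to mitochondria, fell most in CTR mice. Its level was 22.3 to 42.1 CPM (median 27.9) in the 12 P9-CTR mice and 10.96 to 19.96 CPM (median 13.7) in the 7 CTR-PBS mice. In ELS mice it was 21.7 to 40.0 CPM (median 28.4) in the 13 P9-ELS mice and 9.93 to 18.7 CPM (median 13.4) in the 6 ELS-PBS mice. The ages did not overlap in either condition (log2 fold change -1.02, SE 0.15, edgeR adjusted p = 2.19e-07 in CTR; -1.10, adjusted p = 1.41e-07 in ELS). Of the 4504 exonic bases of Mrpl54, 4250 are shared with Matk on the opposite strand. Without a stated strand setting their reads cannot be told apart there, which applies to all values of Mrpl54 given here.

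Mrps26, a small-subunit protein particular to mitochondria, stood at 24.2 to 34.9 CPM (median 29.8) in the 12 P9-CTR mice and 13.0 to 21.1 CPM (median 14.6) in the 7 CTR-PBS mice, again without overlap (log2 fold change -0.89, SE 0.16, edgeR adjusted p = 6.97e-06). In ELS mice its log2 fold change was -0.90 (adjusted p = 1.34e-05), with overlapping groups. Mrpl28, the most abundant member per exon length, went from 57.2 to 84.5 CPM (median 75.3) in the 12 P9-CTR mice to 40.8 to 55.5 CPM (median 44.1) in the 7 CTR-PBS mice (log2 fold change -0.68, SE 0.15, edgeR adjusted p = 0.000273). It did not overlap between the ages in ELS mice either, where its log2 fold change was -0.90 (adjusted p = 1.1e-05). Mrpl12, the stalk protein of the large subunit that recruits translation factors and also binds the mitochondrial RNA polymerase, was at 48.9 to 59.3 CPM (median 50.9) in the 12 P9-CTR mice and 26.9 to 38.4 CPM (median 32.7) in the 7 CTR-PBS mice. It fell in CTR mice (log2 fold change -0.66, SE 0.13, edgeR adjusted p = 7.63e-05) and in ELS mice (-0.77, adjusted p = 1.56e-05). Mrpl34, a small protein of the large subunit, fell by similar amounts, with log2 fold changes of -0.64 (adjusted p = 0.0018) and -0.77 (adjusted p = 0.000402). The other members that fell in both conditions were Mrpl18, Mrpl23, Mrpl27, Mrpl30 and Mrps24, with log2 fold changes from -0.56 (Mrpl18) to -0.47 (Mrpl23) in CTR mice and from -1.04 (Mrpl30) to -0.59 (Mrps24) in ELS mice. Mrps9 fell in CTR mice alone (-0.33; 0.01 in ELS).

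Another 14 members passed the threshold for a fall in ELS mice alone. Mrpl33, a small zinc-ribbon protein of the large subunit, had the lowest log2 fold change, -1.28 (adjusted p = 0.00101), against -0.43 (adjusted p = 0.241) in CTR mice. Its level was 7.41 to 72.3 CPM (median 11.6) in the 13 P9-ELS mice and 4.80 to 8.48 CPM (median 6.51) in the 6 ELS-PBS mice. The top value came from P9-ELS mouse P9_19.2, and without the 3 libraries of few detected genes the log2 fold change was -0.72 (adjusted p = 0.000857) in ELS and -0.62 (adjusted p = 0.00324) in CTR mice. Mrps21, a small-subunit protein with a bacterial counterpart, was at 21.4 to 142 CPM (median 34.3) in the 13 P9-ELS mice and 17.4 to 24.3 CPM (median 18.6) in the 6 ELS-PBS mice (log2 fold change -1.05, SE 0.24, edgeR adjusted p = 0.00029). Mrps36, the dehydrogenase subunit, went from 11.08 to 41.7 CPM (median 14.8) in the 13 P9-ELS mice to 6.82 to 10.0 CPM (median 7.66) in the 6 ELS-PBS mice without overlap (log2 fold change -1.03, SE 0.21, edgeR adjusted p = 6.9e-05). Falls of moderate size were found for Mrpl11, a stalk-base protein (-0.75, adjusted p = 0.00925), for Mrps6 (-0.73, adjusted p = 0.0194), for Mrpl58, the peptidyl-tRNA hydrolase that frees stalled ribosomes (-0.60, adjusted p = 0.0324), and for Mrps12, a protein of the decoding centre (-0.45, adjusted p = 0.0238). Of these, Mrpl58, Mrps12 and Mrps6 lost the call in 10, 6 and 5 of 29 alternatives, all 3 without the libraries of few detected genes. For Mrpl58 the log2 fold change was -0.22 (adjusted p = 0.195) without those libraries and -0.29 (adjusted p = 0.124) without P9-ELS mouse P9_19.2 alone. Its adjusted p was 0.0645, 0.0619, 0.0778 and 0.0843 without ELS-PBS mouse P200_2.1, P200_4.1, P200_17.2 and P200_20.2, respectively. Mrps12 had -0.38 (adjusted p = 0.0538) without mouse P9_9.3, -0.39 (adjusted p = 0.069) without P200_2.1 and -0.41 (adjusted p = 0.0551) without P200_17.2. Mrps6 had -0.58 (adjusted p = 0.0752) without P200_2.1. Reads of Mrps6 cannot be fully told apart from Slc5a3 and a neighbouring model, which share 709 exonic bases with it on the same strand. The other 7 were Mrpl13, Mrpl20, Mrpl42, Mrpl47, Mrpl51, Mrpl57 and Mrps28, with log2 fold changes from -1.05 (Mrpl42) to -0.60 (Mrpl47). Mrps21, Mrps36 and Mrpl42 kept the call in all 29 alternatives, but the size of the fall varied. It ran from -1.22 to -0.69 for Mrps21, from -1.17 to -0.84 for Mrps36 and from -1.28 to -0.52 for Mrpl42. In CTR mice Mrpl11, Mrps6, Mrpl58 and Mrps12 had log2 fold changes of -0.03, 0.32, -0.35 and -0.07, none past the threshold. A call in ELS and none in CTR mice does not show that the conditions differ; the test of that difference is given with the interactions.

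Mrpl38, a large-subunit protein particular to mitochondria, rose with age in both conditions. Its level was 14.7 to 32.5 CPM (median 22.3) in the 12 P9-CTR mice and 30.7 to 57.96 CPM (median 37.7) in the 7 CTR-PBS mice, and the groups overlapped slightly (log2 fold change 0.78, SE 0.14, edgeR adjusted p = 1.34e-05). In ELS mice its log2 fold change was 0.47 (adjusted p = 0.00865). Mrpl50 rose in CTR mice from 32.4 to 45.4 CPM (median 40.1) in the 12 P9-CTR mice to 51.24 to 66.4 CPM (median 63.6) in the 7 CTR-PBS mice without overlap (log2 fold change 0.61, SE 0.13, edgeR adjusted p = 7.77e-05). In ELS mice its value was 0.16 (adjusted p = 0.337). Mrpl1, which forms the mobile stalk near the site where tRNAs leave, was at 19.7 to 27.1 CPM (median 20.5) in the 12 P9-CTR mice and 25.4 to 50.3 CPM (median 26.7) in the 7 CTR-PBS mice. It rose in CTR mice (log2 fold change 0.54, SE 0.16, edgeR adjusted p = 0.00619), and the highest adult value, 50.3 CPM, was that of mouse P200_1.1. The remaining rises in CTR mice were those of Mrpl44 (0.53), Mrpl16 (0.52), Mrps16 (0.50), Mrpl52 (0.39) and Mrpl43 (0.31). Mouse P200_1.1 was also the highest CTR-PBS mouse for Mrpl52 and Mrpl43, and without it their log2 fold changes were 0.14 (adjusted p = 0.448) and 0.19 (adjusted p = 0.194), no longer past the threshold. Mrpl52 lost this call in 8 of 29 alternatives, also without mouse P200_15.1 (0.39, adjusted p = 0.0559), and Mrpl43 in 5. Of the members given by their log2 fold change alone, the calls of Mrps24, Mrps9, Mrps16, Mrpl27, Mrpl23, Mrpl16 and Mrpl30 in CTR mice were lost in 17, 16, 11, 5, 3, 2 and 1 of the 29 alternatives, and in ELS mice those of Mrps24 and Mrpl13 in 12 and 4. That of Mrpl38 in ELS mice was lost with counts summed per nest (0.48, adjusted p = 0.0555).

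Without the 3 libraries of few detected genes, 11 members rose and 20 fell in CTR mice, which is 14.3% and 26.0% where 21.0% and 29.0% of all genes did. In ELS mice 2 rose and 21 fell, 2.6% and 27.3% against 20.8% and 27.4% of all genes. With counts summed per nest, 5 rose and 6 fell in CTR mice (6.49% and 7.79% against 14.0% and 21.1% of all genes), and 0 rose and 24 fell in ELS mice (31.2% against 21.3%). With total counts in place of TMM factors, 4 rose and 17 fell in CTR mice. These were 5.19% and 22.1%, against 14.1% and 29.7% of all genes, whose median moved from -0.09 to -0.20. Several cell markers moved with age beside the members. The summed level of 6 dividing-cell markers was 745 to 1309 CPM in P9-CTR and 2.49 to 15.03 CPM in CTR-PBS mice, and all 6 fell in both conditions. The 4 border-macrophage markers, all of which fell, summed to 534 to 914 CPM and 2.84 to 9.41 CPM. The 8 neuron markers summed to 98.3 to 256 CPM and 2.49 to 16.5 CPM, with 8 falling in CTR and 7 in ELS mice, while 5 of 6 astrocyte markers fell and 1 rose. Their part in the members' changes was not tested. In such sorted bulk samples, fewer cells of a type and less RNA per cell cannot be told apart.

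**Figure D2:**
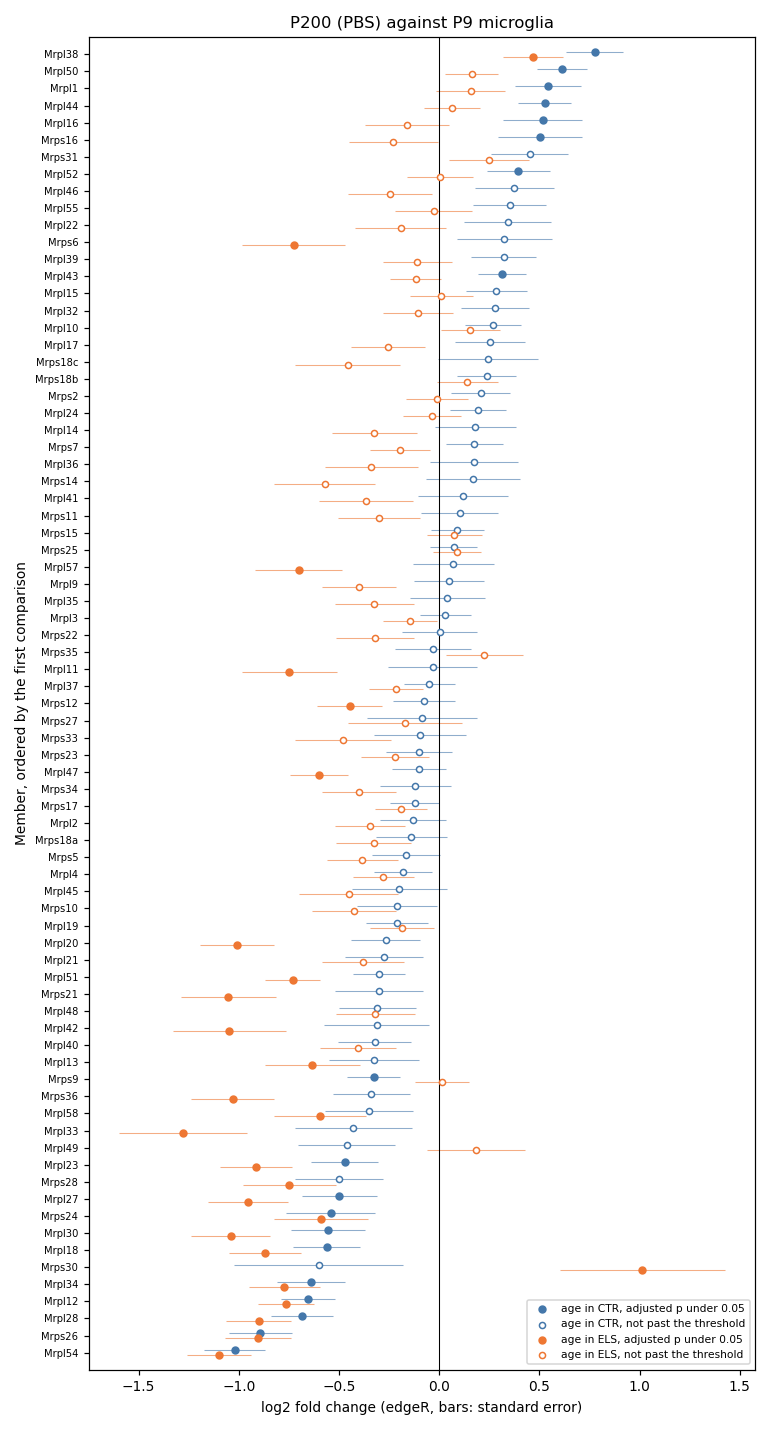
Log2 fold change with age (horizontal axis, edgeR, bars are standard errors) of the 77 tested members (vertical axis), ordered by the CTR value, for CTR mice in blue and ELS mice in orange; filled points passed an adjusted p under 0.05. In CTR mice 8 filled points lie above 0 and 11 below, in ELS mice 2 above and 24 below.

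Cytosolic ribosomal proteins and nuclear OXPHOS subunits, the lists closest in function, changed mostly one way. Of 88 tested cytosolic ribosomal protein genes 75 fell and 1 rose with age in CTR mice (median log2 fold change -0.82), and 81 fell in ELS mice (-1.36). Of 80 OXPHOS subunit genes 45 fell in CTR (median -0.48) and 73 in ELS mice (-0.97), with no rise. Among the 8 tested mRNAs of the mitochondrial genome, which the members' ribosome translates, 6 fell in CTR and 8 in ELS mice, at medians of -0.67 and -0.95. The medians of the members themselves were nearer to 0 in each condition. Without the 3 libraries of few detected genes 81 cytosolic genes fell in each condition, while 65 OXPHOS genes fell in CTR (median -0.57) and 70 in ELS mice (-0.76). These directions were the same with total counts (cytosolic medians -0.92 and -1.36, OXPHOS -0.58 and -0.95). No test compared the lists.

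**Figure D3:**
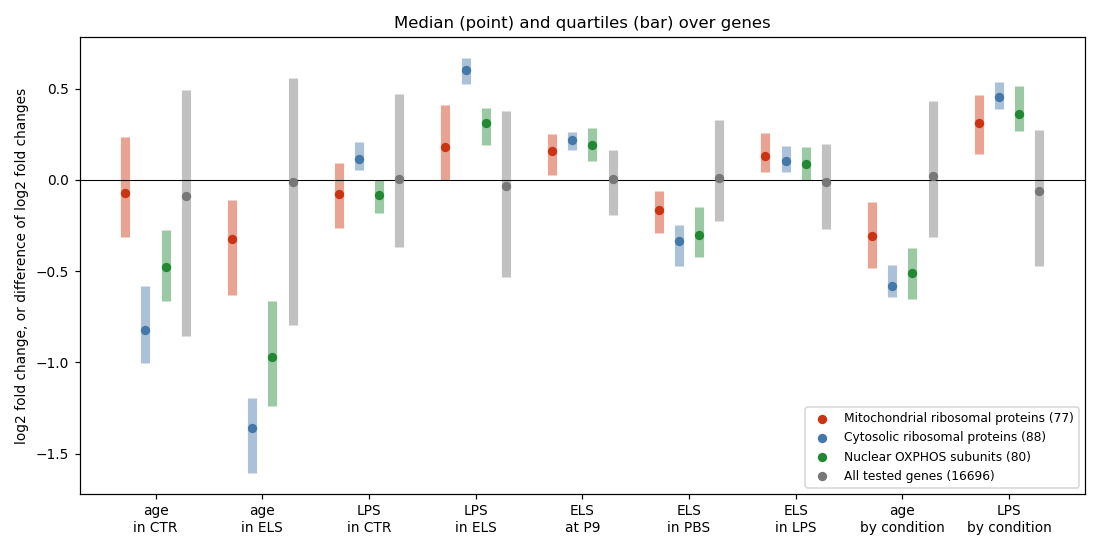
Median (points) and quartiles (bars) of the log2 fold changes over genes, or of their differences for the last pair of comparisons (vertical axis), in the 9 comparisons (horizontal axis), for the 77 tested members, 88 cytosolic ribosomal proteins, 80 nuclear OXPHOS subunits and all 16696 tested genes. With age the medians of the members lie at -0.07 in CTR and -0.32 in ELS mice, above those of the cytosolic ribosomal proteins at -0.82 and -1.36; without the 3 libraries of few detected genes the medians of the members, not drawn, were -0.10 and -0.14.

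The response to LPS was asked in adult mice of each history, again with no shared mouse. In CTR mice (CTR-LPS against CTR-PBS) 2 members rose and 5 fell, where 8.73% of all tested genes rose and 6.2% fell. In ELS mice (ELS-LPS against ELS-PBS) 8 rose and none fell at an adjusted p under 0.05 (edgeR), where 7.4% of all genes rose and 4.94% fell. The members' shares were 2.6% up and 6.49% down in CTR and 10.4% up in ELS mice. Their median log2 fold change was -0.08 in CTR (all genes 0.00) and 0.18 in ELS mice (all genes -0.04), with 28 and 57 of the 77 values above 0. In each condition 1 member passed the threshold with an absolute log2 fold change above 1, where 9.62% of all genes did in CTR and 7.86% in ELS mice. Both members that rose in CTR mice, Mrpl52 and Mrps18b, were among the 8 that rose in ELS mice.

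Mrpl52, a large-subunit protein particular to mitochondria, was at 25.2 to 66.6 CPM (median 27.8) in the 7 CTR-PBS mice and 38.1 to 72.7 CPM (median 46.3) in the 7 CTR-LPS mice. In ELS mice it was at 12.8 to 28.4 CPM (median 24.0) in the 6 ELS-PBS mice and at 45.6, 47.9, 49.9, 50.2 and 55.9 CPM in the 5 ELS-LPS mice, so that the ELS groups did not overlap. It rose in CTR (log2 fold change 0.62, SE 0.18, edgeR adjusted p = 0.0119) and in ELS mice (log2 fold change 1.12, SE 0.20, edgeR adjusted p = 4.73e-05). The CTR groups overlapped through mouse P200_1.1 at 66.6 CPM; the next CTR-PBS mouse had 34.7 CPM, and without mouse P200_1.1 the log2 fold change in CTR mice was 0.88 (adjusted p = 4.58e-05). The call in CTR mice was lost where the nest was taken into account by summed counts (0.51, adjusted p = 0.154) or by the nest as replicate block in adult mice (0.58, adjusted p = 0.069), and where the CTR groups were compared alone (0.61, adjusted p = 0.079). It was kept in ELS mice under all 23 alternatives. Its exons share 465 bases with the gene model Gm62879 on the opposite strand.

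Mrps18b, 1 of 3 paralogues of a bacterial small-subunit protein, did not overlap between PBS and LPS in either condition. Its level was 23.4 to 29.3 CPM (median 24.6) in the 7 CTR-PBS mice and 34.1 to 52.09 CPM (median 41.7) in the 7 CTR-LPS mice (log2 fold change 0.70, SE 0.17, edgeR adjusted p = 0.00166). In ELS mice it was 21.1 to 27.5 CPM (median 24.5) in the 6 ELS-PBS mice and 32.6, 37.3, 40.9, 43.1 and 63.4 CPM in the 5 ELS-LPS mice (log2 fold change 0.84, SE 0.19, edgeR adjusted p = 0.000923). The start of Ppp1r10, which encodes a nuclear regulatory subunit of protein phosphatase 1, lies 598 bases from that of Mrps18b on the opposite strand, and Ppp1r10 rose too (1.19 in CTR, adjusted p = 1.34e-06; 0.94 in ELS, adjusted p = 0.000683). Mrps18b shares 1179 exonic bases with Ppp1r10 and another model, and without a stated strand setting their reads cannot be told apart there. The paralogues did not pass the threshold: Mrps18a, a large-subunit protein, had log2 fold changes of 0.24 (adjusted p = 0.495) and 0.40 (adjusted p = 0.277), and Mrps18c -0.11 (adjusted p = 0.863) and 0.38 (adjusted p = 0.504).

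The other 6 members that rose in ELS mice passed the threshold in that condition alone. Mrpl17, a large-subunit protein near the exit of the peptide tunnel, was at 62.4 to 92.1 CPM (median 72.8) in the 6 ELS-PBS mice and 119.6, 127, 136, 141 and 148 CPM in the 5 ELS-LPS mice. The groups did not overlap (log2 fold change 0.85, SE 0.22, edgeR adjusted p = 0.00611). In CTR mice its log2 fold change was 0.54 (adjusted p = 0.0563), and 0.70 (adjusted p = 7.08e-06) without the libraries of few detected genes. Mrpl54 was at 9.93 to 18.7 CPM (median 13.4) in the 6 ELS-PBS mice and 18.8, 20.8, 21.7, 24.0 and 35.2 CPM in the 5 ELS-LPS mice, also without overlap (log2 fold change 0.80, SE 0.18, edgeR adjusted p = 0.00152). The others were Mrpl9 (0.74), Mrps7 (0.54), Mrpl50 (0.54) and Mrpl12 (0.52, adjusted p = 0.0311). Mrpl12 stood at 24.1 to 40.8 CPM (median 30.5) in the 6 ELS-PBS mice and 33.1, 33.7, 36.1, 59.3 and 61.0 CPM in the 5 ELS-LPS mice, with overlapping groups. Mouse P200_11.2 was the highest ELS-LPS mouse for Mrpl52, Mrps18b, Mrpl17 and Mrpl54, and without it Mrps18b had 0.67 (adjusted p = 0.0122) and Mrpl54 0.63 (adjusted p = 0.0183). Mrpl12 lost its call without that mouse (0.39, adjusted p = 0.143) and without ELS-LPS mouse P200_2.2 (0.38, adjusted p = 0.169). It also lost it without ELS-PBS mouse P200_4.1, P200_11.1, P200_17.2 or P200_20.2 (adjusted p = 0.054, 0.0515, 0.0811 and 0.0807), with total counts (0.30, adjusted p = 0.244) and with the nest as replicate block (0.49, adjusted p = 0.089), in all in 10 of 23 alternatives. Mrpl50 had 0.44 (adjusted p = 0.0938) without mouse P200_2.2 and 0.33 (adjusted p = 0.152) with total counts. Mrps7 lost its call in 12 and Mrpl9 in 4 of the 23 alternatives.

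Mrpl44, which carries an RNase III-like fold and is needed for assembly of the large subunit, fell most in CTR mice. Its level was 37.9 to 56.9 CPM (median 41.6) in the 7 CTR-PBS mice and 14.9 to 28.3 CPM (median 20.5) in the 7 CTR-LPS mice, with no overlap (log2 fold change -1.07, SE 0.15, edgeR adjusted p = 3.32e-07). In ELS mice it was 32.3 to 47.1 CPM (median 37.7) in the 6 ELS-PBS mice and 20.5, 22.3, 26.6, 32.0 and 38.1 CPM in the 5 ELS-LPS mice, with overlap (log2 fold change -0.44, SE 0.17, edgeR adjusted p = 0.0891). Mrpl43, a large-subunit protein particular to mitochondria, was at 43.0 to 79.8 CPM (median 50.4) in the 7 CTR-PBS mice and 23.5 to 33.9 CPM (median 27.9) in the 7 CTR-LPS mice, again with no overlap (log2 fold change -0.94, SE 0.14, edgeR adjusted p = 8.57e-07). In ELS mice it was 31.7 to 48.8 CPM (median 45.9) in the 6 ELS-PBS mice and 26.1, 29.6, 29.6, 31.9 and 48.8 CPM in the 5 ELS-LPS mice, also with overlap (log2 fold change -0.37, SE 0.16, edgeR adjusted p = 0.123). The highest ELS-LPS value of Mrpl43 was that of mouse P200_11.2. Without mouse P200_1.1, the highest CTR-PBS mouse for Mrpl43, both remained past the threshold in CTR mice (adjusted p = 1.78e-06 for Mrpl44 and 6.66e-06 for Mrpl43). Twnk, the helicase of mitochondrial DNA, starts 56 bases from Mrpl43 on the opposite strand and fell in CTR (-1.03, adjusted p = 5.68e-06) and in ELS mice (-0.58, adjusted p = 0.0351). Mrpl43 shares 2445 exonic bases with Twnk and Sema4g, where reads cannot be told apart without strand.

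The other 3 falls in CTR mice were smaller. Mrpl22, a protein that lines the exit tunnel, was at 16.6 to 48.1 CPM (median 19.9) in the 7 CTR-PBS mice and 9.06 to 19.31 CPM (median 14.9) in the 7 CTR-LPS mice, with overlap (log2 fold change -0.71, SE 0.25, edgeR adjusted p = 0.042). Its top CTR-PBS value was that of mouse P200_1.1, and without that mouse the log2 fold change was -0.43 (adjusted p = 0.239). Mrpl38 had -0.47 (adjusted p = 0.0421), and -0.35 (adjusted p = 0.149) without mouse P200_1.1. Mrpl22 and Mrpl38 each lost the call in 13 of 26 alternatives, and in 9 of the 14 in which 1 mouse was left out. Besides P200_1.1, these were P200_1.2, P200_1.3, P200_5.2, P200_8.2, P200_8.3, P200_15.1, P200_15.2 and P200_18.3 for Mrpl22, and P200_1.3, P200_5.2, P200_5.3, P200_8.2, P200_8.3, P200_15.2, P200_18.2 and P200_18.3 for Mrpl38. Over all 14 the adjusted p ran from 0.0289 to 0.239 for Mrpl22 and from 0.0187 to 0.149 for Mrpl38. Mrps16, a small-subunit protein, had -0.69 (adjusted p = 0.042) and lost the call in 13 of the 26 alternatives. Mrpl10, which holds the stalk, Mrpl11 and Mrpl3, a protein near the catalytic centre, did not pass the threshold in either condition; their log2 fold changes were -0.32, -0.45 and -0.03 in CTR and -0.30, 0.17 and 0.09 in ELS mice.

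The direction of the members' responses depended on scaling. With total counts in place of TMM factors, 2 members rose and 12 fell in CTR mice. These were 2.6% and 15.6%, against 6.92% and 9.46% of all genes. Among ELS mice 4 rose and 4 fell (5.19% each, against 5.05% and 9.41% of all genes). The median of all genes moved from 0.00 to -0.12 in CTR and from -0.04 to -0.25 in ELS mice. Relative to the median of all genes the members' median was -0.08 in CTR and 0.21 in ELS mice with TMM, and -0.09 and 0.21 with total counts. Without the 3 libraries of few detected genes, 5 rose and 6 fell in CTR mice, 6.49% and 7.79% where 10.8% and 8.95% of all genes did. The members' median relative to all genes was then -0.01 in CTR mice. In ELS mice 16 rose and 2 fell, 20.8% and 2.6% against 11.5% and 9.64% of all genes, with the relative median still at 0.21. The adult ELS groups lost no mouse by this, so ELS-LPS mouse P200_11.2 stayed in. In mean log2 CPM of the tested members it stood at 5.29, against 4.74 to 4.84 in the other ELS-LPS mice and 4.60 to 4.90 in ELS-PBS mice. The part of that mouse in the members' median after LPS in ELS mice was not tested.

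Several cell markers moved with LPS beside the members. Of 8 microglia markers 3 fell in both conditions, namely Sall1, a transcription factor of microglial identity (-1.73 in CTR and -2.01 in ELS mice), Gpr34 (-0.75 and -0.76) and P2ry12, a purinergic receptor (-0.62 and -0.58). The 8 summed to 70024 to 82049 CPM in CTR-PBS and 56709 to 74115 CPM in CTR-LPS mice, and to 69178 to 77383 CPM in ELS-PBS and 60146 to 72392 CPM in ELS-LPS mice. Of 5 endothelial markers Kdr (2.28) and Cdh5 (2.06) rose in CTR mice and none passed the threshold in ELS mice by edgeR (0 at an unadjusted p under 0.05), with sums of 39.3 to 71.1 CPM in CTR-PBS and 60.9 to 93.6 CPM in CTR-LPS mice. The 6 astrocyte markers summed to 301 to 503 CPM in CTR-PBS and 485 to 618 CPM in CTR-LPS mice, with 1 of 6 rising in CTR and 2 of 6 in ELS mice. Most of this sum was Slc1a3, a glutamate transporter, at 356 ± 70.4 CPM in CTR-PBS and 549.6 ± 46.2 CPM in CTR-LPS mice (SD, n = 7 each; 0.63). The part of these markers in the members' changes was not tested. Defining monocyte and neutrophil markers stayed near 0, with summed levels of 2.00 to 8.41 CPM in CTR-LPS and 0.878 to 9.66 CPM in ELS-LPS mice, where Retnlg was at 0 in both groups.

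**Figure D4:**
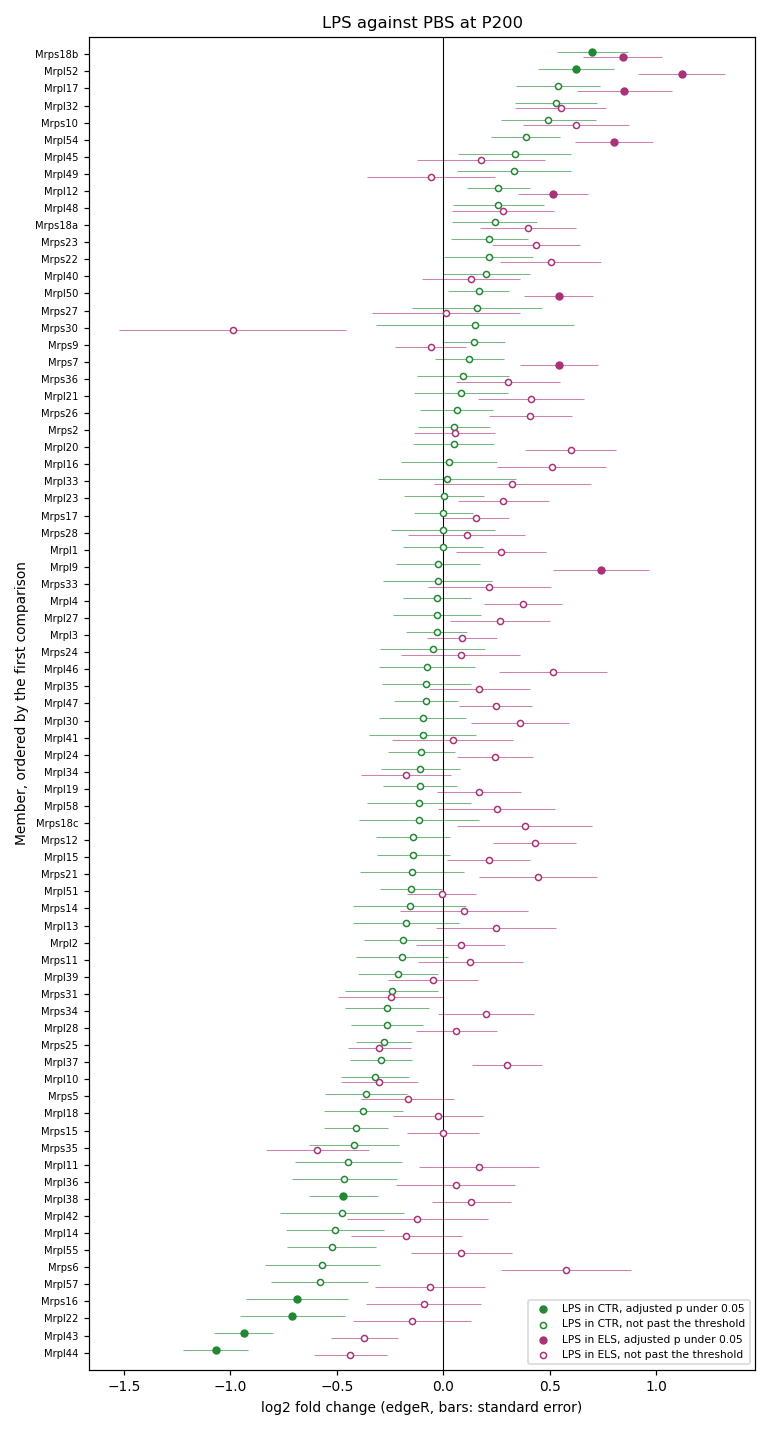
Log2 fold change after LPS (horizontal axis, edgeR, bars are standard errors) of the 77 tested members (vertical axis), ordered by the CTR value, for CTR mice in green and ELS mice in purple; filled points passed an adjusted p under 0.05. Mrpl44 and Mrpl43 lie lowest among the filled CTR points, at -1.07 and -0.94, and Mrpl52 highest among the filled ELS points, at 1.12.

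In the related lists, 53 of 88 cytosolic ribosomal protein genes rose after LPS in ELS mice (median 0.60) and 2 in CTR mice (median 0.12); with total counts 10 and 0 did, at medians of 0.38 and 0.00, and without the 3 libraries of few detected genes 72 and 10, at 0.60 and 0.31. In CTR mice edgeR's main fit gave 4 at an unadjusted p under 0.05. Of 80 OXPHOS subunit genes 3 rose in ELS mice (median 0.31; with total counts 1 rose and 1 fell, median 0.09; without the 3 libraries 16 rose) and none passed the threshold in CTR mice (edgeR, median -0.08, 1 at an unadjusted p under 0.05). The mRNAs of the mitochondrial genome had medians of 0.20 in CTR and 0.24 in ELS mice, none past the threshold by edgeR, with 0 and 1 at an unadjusted p under 0.05.

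**Figure D5:**
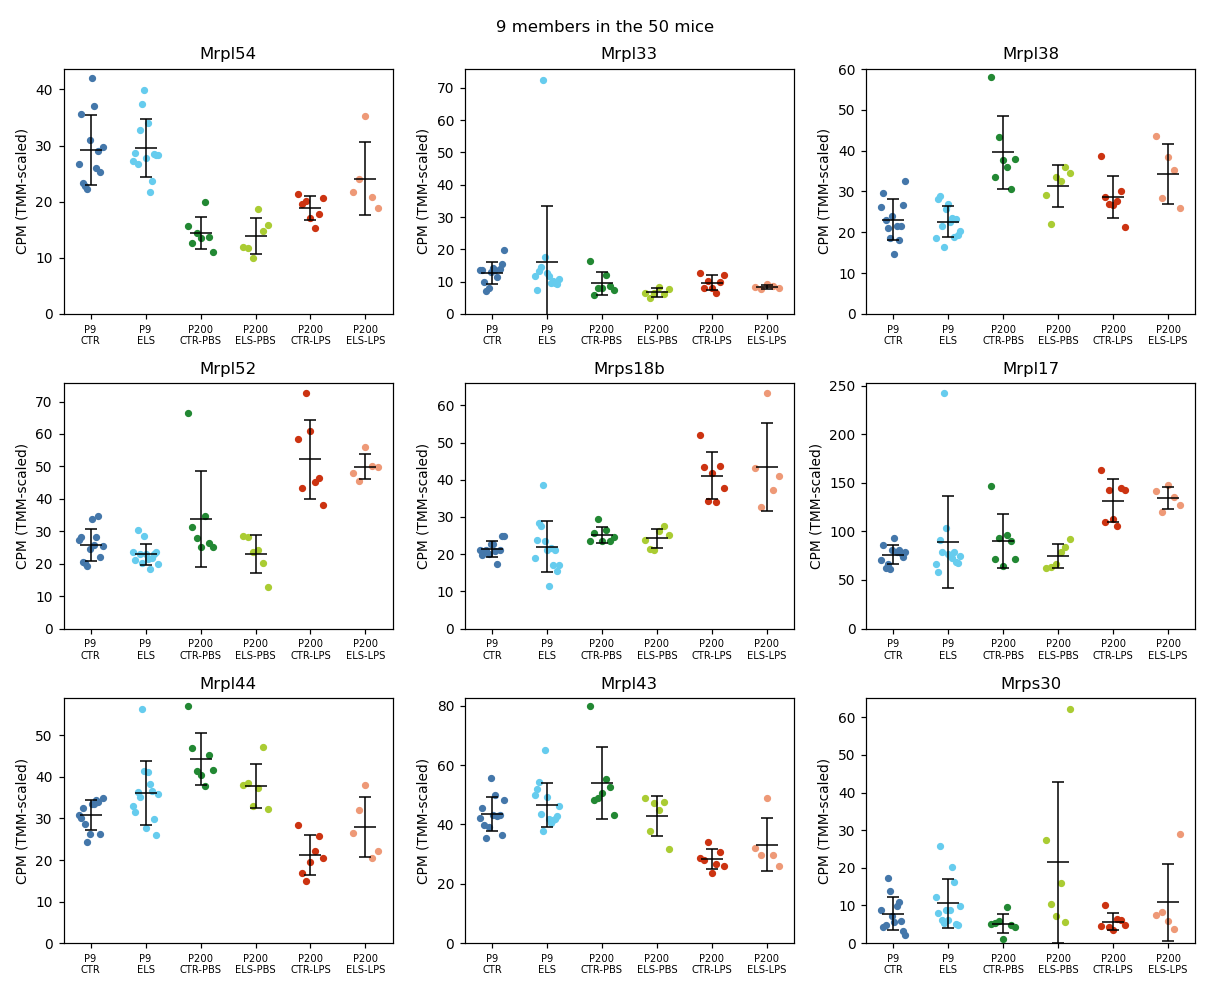
TMM-scaled CPM (vertical axes, from 0) of 9 members in each of the 50 mice by group (points), with mean and SD in black (bars that would reach below 0 are cut there). Mrpl54 is lower in adult than in P9 mice. Mrpl52 and Mrps18b are higher after LPS in both conditions, and Mrpl44 and Mrpl43 are lower after LPS in CTR mice. For Mrpl52 in CTR mice the call of the main fit was kept with the nest as a random effect. It was lost with counts summed per nest, with the nest as replicate block and with the CTR groups compared alone. Mrps30 reaches 62.1 CPM in 1 ELS-PBS mouse.

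Early-life stress itself was examined at P9 and in adult mice after PBS or LPS. No member passed an adjusted p under 0.05 in any of the 3 comparisons by edgeR's quasi-likelihood test. At P9 this was the case for 0% of all genes, in PBS mice 0.168% of all genes passed, and in LPS mice 0%. At an unadjusted p under 0.05 there were 10 members at P9, 10 in PBS and 3 in LPS mice, against 914, 1622 and 798 of all 16696 genes. DESeq2 called 0, 1 and 0 members. Of all genes it called 0, 112 and 1 as higher and 0, 66 and 1 as lower. The signs were uneven: 63 of 77 log2 fold changes were above 0 at P9 (median 0.16), 13 in PBS mice (median -0.16) and 62 in LPS mice (median 0.13). The medians of all genes were 0.00, 0.01 and -0.01. Cytosolic ribosomal proteins had medians of 0.22, -0.33 and 0.10, and OXPHOS subunits 0.19, -0.30 and 0.09. With total-count scaling the members' medians were 0.05 at P9, -0.14 in PBS and 0.06 in LPS mice. The skew at P9 rested on the libraries of few detected genes, among them the P9-ELS mouse with the highest sum: without them 40 of 77 values were above 0 at P9, with a median of 0.004 (all genes 0.0039). In PBS mice 14 were then above 0 (median -0.13) and in LPS mice 62 (median 0.13). No LPS mouse is among these 3 libraries. In mean log2 CPM of the tested members, ELS-LPS mouse P200_11.2 stood at 5.29. The other ELS-LPS mice had 4.74 to 4.84 and the CTR-LPS mice 4.56 to 5.00. How far the skew in LPS mice rests on mouse P200_11.2 was not tested. Without the 3 libraries of few detected genes the P9 median was 0.12 for cytosolic ribosomal proteins and 0.0046 for OXPHOS subunits.

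Mrps30 had the largest difference between ELS-PBS and CTR-PBS mice among the members. This protein belongs to the large subunit despite its symbol. Its level was 1.21 to 9.62 CPM (median 5.19) in the 7 CTR-PBS mice and 5.56 to 62.1 CPM (median 13.1) in the 6 ELS-PBS mice. The ELS-PBS mice spread widely: mice P200_20.2 and P200_2.1 had 62.1 and 27.5 CPM, whereas P200_17.2 and P200_11.1 had 5.56 and 7.19 CPM, within the range of CTR-PBS mice. The log2 fold change was 2.05 (SE 0.49, adjusted p = 0.0571). The likelihood-ratio test of edgeR gave an adjusted p of 0.00778 and DESeq2 0.00766, and leaving out ELS-PBS mouse P200_17.2 gave 0.0344 and mouse P200_11.1 0.0476 by the main test. Leaving out CTR-PBS mouse P200_15.1, the highest of its group at 9.62 CPM, also took Mrps30 past the threshold (adjusted p = 0.0241). It did not pass under the other 19 of 24 alternatives. The lowest log2 fold change over the 13 in which 1 mouse was left out, 1.36 (adjusted p = 0.293), was that without mouse P200_20.2.

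In the remaining groups Mrps30 was at 2.23 to 17.29 CPM (median 6.59) in the 12 P9-CTR mice, 4.89 to 25.8 CPM (median 8.78) in the 13 P9-ELS mice and 3.54 to 10.1 CPM (median 4.74) in the 7 CTR-LPS mice. It stood at 3.68, 5.75, 7.38, 8.19 and 29.0 CPM in the 5 ELS-LPS mice. All groups overlapped. It rose with age in ELS mice (1.01, adjusted p = 0.0419), and lost that call in 14 of 29 alternatives. Without mouse P200_20.2 the log2 fold change was 0.33 (adjusted p = 0.569), without mouse P200_2.1 0.93 (adjusted p = 0.0882) and without the 3 libraries of few detected genes 0.93 (adjusted p = 0.0681). Leaving out P9-ELS mouse P9_9.2, P9_19.1, P9_19.2, P9_19.3, P9_53.1, P9_55.1 or P9_55.2 gave adjusted p-values from 0.0502 to 0.0618. After LPS its log2 fold change in ELS mice was -0.99 (adjusted p = 0.249), and -1.78 (adjusted p = 0.0327) without ELS-LPS mouse P200_20.1. Its exons share 673 bases with B430218F22Rik on the opposite strand. The gene lies at chr13:118513808-118523838 on the minus strand (GRCm39).

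Whether age or LPS acted differently in ELS and CTR mice was tested by the interaction terms. No member passed an adjusted p under 0.05 by edgeR for either term, nor by DESeq2. Of all genes 0.0299% passed for age and 0% for LPS. At an unadjusted p under 0.05 there were 17 members for age and 7 for LPS, against 1712 and 980 of all genes, and the smallest adjusted p among the members was 0.283 and 0.537. The log2 fold change with age was lower in ELS than in CTR mice for 71 of 77 members, with a median difference of -0.31 (all genes 0.02). That after LPS was higher in ELS mice for 67 of 77, with a median difference of 0.31 (all genes -0.06). Without the 3 libraries of few detected genes, 56 members had the lower value with age in ELS mice, and the median difference was -0.10 (all genes 0.0006). For LPS it was then 0.26 (all genes -0.04), with 66 members higher in ELS mice. ELS-LPS mouse P200_11.2, the highest of its group in summed level, is not among these 3 libraries, and its part in this difference was not tested. With total counts the median differences were -0.20 for age (all genes 0.12) and 0.22 for LPS (all genes -0.14). These interactions, the ELS comparison in PBS mice and the comparisons with age and LPS share the CTR-PBS and ELS-PBS mice. Cytosolic ribosomal proteins had median differences of -0.58 and 0.45 and OXPHOS subunits -0.51 and 0.36; without the 3 libraries these were -0.29 and 0.30, and -0.17 and 0.24.

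Members of both subunits were called in each comparison of age and LPS. With age in CTR mice 7 of 50 tested large-subunit members rose and 8 fell, and 1 of 26 small-subunit members rose and 3 fell. In ELS mice 17 large-subunit members fell and 2 rose, and 6 small-subunit members fell, the remaining fall being that of Mrps36. Of all tested genes 17.4% rose and 26.6% fell with age in CTR mice, and 17.15% and 25.0% in ELS mice. After LPS in ELS mice 6 large-subunit and 2 small-subunit members rose, and in CTR mice 1 rose and 4 fell in the large subunit against 1 and 1 in the small subunit. Of all tested genes 7.4% rose and 4.94% fell after LPS in ELS mice, and 8.73% and 6.2% in CTR mice. Median log2 fold changes with age in ELS mice were -0.34 for the 30 large-subunit members with bacterial counterparts, -0.28 for the 20 others, -0.38 for the 17 small-subunit members with bacterial counterparts and -0.22 for the 9 others. Of the 47 members with bacterial counterparts 3 rose and 9 fell with age in CTR mice, and of the 29 tested ones particular to mitochondria 5 rose and 2 fell. The calls in ELS mice were mostly falls in both classes. With bacterial counterparts 12 of 30 large-subunit and 5 of 17 small-subunit members fell and 0 rose. Of those particular to mitochondria 5 of 20 and 1 of 9 fell, and 2 of the 20 rose.

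Genes that serve the same ribosome did not move as a block either. Among 5 subunits with other symbols, 1 rose and 2 fell with age in CTR and 0 rose and 2 fell in ELS mice; Dap3, a GTP-binding small-subunit protein, fell in both (-0.63 and -0.51), and none passed the threshold after LPS by edgeR, with 1 in CTR and 1 in ELS mice at an unadjusted p under 0.05. Of 27 assembly factors, 6 rose and 4 fell with age in CTR and 8 rose and 3 fell in ELS mice. C1qbp, a matrix protein needed for translation, fell in both (-1.84 and -0.96). After LPS 3 rose and 2 fell in CTR and 2 rose and 3 fell in ELS mice, with Mrm2, a methyltransferase of the large ribosomal RNA, falling (-1.53 and -1.15) and Mrm3, another one, rising in both (1.43 and 1.35).

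Of 14 tested translation factors 3 rose and 0 fell with age in CTR mice and 2 rose and 1 fell in ELS mice, where Gfm2, a ribosome recycling factor, rose in both (0.93 and 0.64). After LPS 1 rose and 3 fell in CTR and 0 rose and 2 fell in ELS mice, and Taco1, which activates translation of a cytochrome oxidase mRNA, fell in both (-0.83 and -0.80). Of 20 tested aminoacyl-tRNA synthetases and related enzymes 3 rose and 2 fell with age in CTR and 1 rose and 0 fell in ELS mice. After LPS 0 rose and 4 fell in CTR and 0 rose and 2 fell in ELS mice, led by Pars2 in CTR mice (-1.87) and by Hars2 in ELS mice (-0.56). Of 13 genes for mitochondrial transcription and genome upkeep 2 rose and 3 fell with age in CTR mice and none passed by edgeR in ELS mice (0 at an unadjusted p under 0.05), and after LPS 0 rose and 1 fell in CTR and 0 rose and 2 fell in ELS mice.

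Among 9 transcription regulators, Myc rose after LPS in both conditions (1.56 and 1.63) and Pprc1, a coactivator of NRF1, in CTR mice (1.79). Ppargc1a, the coactivator known for driving mitochondrial biogenesis, passed the threshold for a fall with age in both conditions (adjusted p = 3.74e-05 and 0.000199). In P9-CTR mice it stood at 1.37 ± 1.23 CPM (SD, n = 12), against 0.0102 ± 0.0269 CPM (SD, n = 7) in the CTR-PBS group, too few reads for a fold change to be given.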

How the data were processed

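Poly(A) RNA of sorted hippocampal microglia from 50 mice was sequenced. Per the labels and the study's methods, the authors trimmed reads with cutadapt 2.10 after bcl2fastq 2.20, aligned them with STAR to GRCm39 and deposited raw counts of uniquely mapped reads in exons per gene from HTSeq 0.11.0. The annotation release and the strand setting are not given in the sources used here, so that reads of genes overlapping on opposite strands may not be separated. Counts were analysed with edgeR 4.0.16 in R 4.3.3: TMM factors, a filter that kept the 16696 of 53700 genes reaching 1 CPM in 3 or more mice, 1 quasi-likelihood fit over the 6 groups with no covariates, and Benjamini-Hochberg adjustment over all tested genes at 0.05. CPM are TMM-scaled. Counts were simulated for the age comparison in CTR mice alone, with independent mice and changes placed in genes with a mean above 5 CPM. There 142 of 200 genes changed by 1 on the log2 scale were recovered over the 16696 genes, with 7 false calls. The other comparisons, smaller changes and shared nests were not simulated. The p-values measure the spread between mice. In the study litters were assigned at random to CTR or ELS, while the main fit treats mice of the same nest as independent. By label number the P9-ELS mice came from 4 nests and each other group from 5. The main p-values therefore do not measure the spread between nests. Lengths, overlaps and promoters came from GENCODE M39 on GRCm39.

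The members and gene lists were chosen with earlier results of these data known. Members were named by rule: per comparison the 3 called with the largest rise and the 3 with the largest fall (mean log2 CPM of at least 1), the 3 highest and 3 lowest levels per length, and Mrps30, Mrpl12, Mrpl10, Mrpl11, Mrps12, Mrps18a, Mrps18b, Mrps18c, Mrpl58, Mrps36, Mrps6 and Mrpl3. From the other lists at most 3 called genes with the largest change per comparison were eligible. Members outside this rule were named after their values were seen. Alternatives were DESeq2 1.42.0, the likelihood-ratio test, other size factors, filters and groups in the fit, the nest as a summed unit, as a random effect (limma 3.58.1) or as a block, and leaving out each mouse or the 3 libraries with fewer than 16000 detected genes.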

Additional observations from a re-analysis of the deposited data

Results flagged for a closer look

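A gap between 1 mouse and the rest of its adult group, larger than Dixon's 95% limit, was found for 20 of 120 combinations. Each combination was a group and either a member or the members' summed level. The 120 share the same mice and are not independent, so the count cannot be set against a chance rate. Of the 20, 8 were the CTR-PBS mouse P200_1.1, the library with 12854 detected genes, as the highest of its group: in CPM, Mrpl1 50.3, Mrpl11 54.1, Mrpl17 147, Mrpl22 48.1, Mrpl36 81.6, Mrpl43 79.8, Mrpl52 66.6 and Mrps21 43.4. The ELS-LPS mouse P200_11.2 was highest in 7: the summed level of the members at 3492 CPM (next mouse 2522), and, in CPM, Mrpl28 82.2, Mrpl36 72.8, Mrpl43 48.8, Mrpl58 40.6, Mrps21 36.9 and Mrps36 14.5. That library held 18600 detected genes, the most of its group.

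In ELS-PBS mice the highest values standing apart were those of Mrpl11 in mouse P200_17.2 (26.0 CPM, next 21.4), Mrpl50 in mouse P200_20.2 (59.8 CPM, next 47.9) and the scarcely detected Mrpl53 in mouse P200_17.1 (0.201 CPM). Mrps30 stood apart in CTR-LPS mouse P200_1.3 (10.1 CPM, next 6.38) and in ELS-LPS mouse P200_20.1 (29.0 CPM, next 8.19). Mouse P200_20.1 carries the same nest number as ELS-PBS mouse P200_20.2, the highest of all 50 mice for Mrps30. What these mice share was not tested.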

How the results depend on the processing

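No named member past the threshold changed sign under any alternative run. Of 4003 repeats of a named member's comparison, 3902 kept their side of the threshold, 90 lost a call and 11 gained one. Many of these repeats had no call to lose, as in the ELS comparisons and interactions, where the main fit called no member. Single calls were lost in up to 17 of 29 alternatives (Mrps24, age in CTR mice). The number of members called with age in CTR mice, 19, was 31 without the 3 libraries of few detected genes, 11 with counts summed per nest and 1 when an absolute log2 fold change above 1 was also required. Of all genes 21.0% rose and 29.0% fell without the 3 libraries, and 14.0% and 21.1% with counts summed per nest. With the fold required 26.4% of all genes passed. The filter filterByExpr gave 12 rises and 7 falls (15.6% and 9.09%, against 18.6% and 23.9% of all genes). With age in ELS mice, 26 became 8 with that fold required, where 26.2% of all genes passed. After LPS in CTR mice, 7 became 11 with DESeq2, 14 with total counts, 4 with no filter, 11 without the 3 libraries, 11 with the nest as a random effect and 1 with the fold required. After LPS in ELS mice, 8 became 18 without the 3 libraries, where 11.5% of all genes rose and 9.64% fell. With the fold required 1 remained, where 7.86% of all genes passed. For ELS in PBS mice, 0 became 1 (Mrps30) with the likelihood-ratio test and with DESeq2. Of all genes 0.856% rose and 0.431% fell with the former, and 0.671% and 0.395% with the latter.

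Leaving out 1 mouse at a time gave 16 to 19 calls for age in CTR, 21 to 27 for age in ELS, 4 to 8 for LPS in CTR (4 without CTR-LPS mouse P200_1.3, P200_8.2 or P200_15.2), 5 to 9 for LPS in ELS (5 without ELS-LPS mouse P200_2.2 or ELS-PBS mouse P200_11.1 or P200_17.2) and 0 to 1 for ELS in PBS mice. The share of all genes called is not given for these fits, so the counts cannot be set against it. The causes of these changes were not tested.

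With the nest as replicate block in adult mice, 3 members rose and 4 fell after LPS in CTR mice. These were 3.9% and 5.19%, against 7.54% and 5.4% of all genes. Among ELS mice 10 rose (13.0% against 7.56%) and 0 fell (against 5.15%). The same mice without the block, an alternative added after seeing the data, gave 4 and 5, and 12 and 0. All genes then gave 9.06% and 6.88%, and 8.25% and 5.11%. Deviations from the group means correlated weakly within nests. They ran from -0.0419 to 0.102 (median 0.0115) in 9 same-nest pairs of CTR mice and -0.0411 to 0.0624 (median 0.0445) in 6 of ELS mice. Pairs from different nests had medians of -0.0017 (CTR, 40 pairs) and -0.00721 (ELS, 24 pairs). The fit with the nest as a random effect gave a within-nest correlation of 0.0778. So few same-nest pairs cannot show whether littermates resembled each other. Depth limits Mrpl53 most, whose counts are too few for a test.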

Other observations

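The 6 symbols with -ps, left out of the members as likely processed copies, held few reads. Mrpl23-ps1 had 858 reads over the 50 mice, was detected in every mouse and averaged 0.808 CPM. Mrpl48-ps had 119 reads, Mrps36-ps1 103, Mrps36-ps2 43 and Mrpl27-ps 16, and Mrps36-ps3 had 0. Reads that map equally well to a parent gene and a copy were not counted, so that these totals cannot be added to the parents' counts.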
